A study of Mus musculus with 5 samples.

Results

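Oxidative phosphorylation is carried out in the inner mitochondrial membrane by 5 multi-subunit complexes. Complexes I and II take electrons from NADH and succinate, complex III passes them through the mobile carrier cytochrome c to complex IV, which reduces oxygen, and complex V, the ATP synthase, uses the proton gradient built along the way to make ATP. A small core of subunits is encoded by mitochondrial DNA, and all other subunits are encoded in the nucleus and imported. Healthy secretory prostate epithelium is known for exporting citrate instead of oxidizing it, and prostate cancer cells for oxidizing it again.

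The nuclear-encoded genes of these complexes were selected by symbol, as all genes beginning with Ndufa, Ndufb, Ndufc, Ndufs or Ndufv and a digit (complex I), Sdha to Sdhd (complex II), Uqcr (complex III), Cox4 to Cox8 (complex IV) or Atp5 (complex V), with Cyc1 (complex III) and Cycs (cytochrome c) added. The rule reads symbols only, and it was set with earlier results of these data known. Of 24527 genes in the count table, 87 were selected, namely 39 of complex I, 4 of complex II, 9 of complex III, 18 of complex IV, 16 of complex V and Cycs. Ndufa4 was placed in complex I by its name, although its protein is now regarded as a subunit of complex IV. The 13 subunits encoded by mitochondrial DNA have no row in the table and were not analysed here.

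Bulk RNA-seq had been performed on prostate tumor tissue of 5 TripleTg mice, each a separate animal: 3 castrated and 2 intact. All carried hHGFtg, a ubiquitous human HGF transgene, H11hMET/+, a human MET transgene, Ctnnb1 L(Ex3)/+, an allele whose product is stabilized after loss of exon 3, and PB Cre4, whose probasin promoter directs Cre, and with it MET and stabilized β-catenin, to prostate epithelium. The genetic background was a mixture of C57BL/6 and C3H SCID. Castrated mice had been operated on at 4 months of age and were analyzed, with the intact mice, at 8 months. The probasin promoter responds to androgen, so castration also withdraws the hormone that drives Cre. By the paper's methods, MET expression is constitutive once Cre has removed a stop cassette. The paper also reports phosphorylated MET and nuclear β-catenin in tumor cells of castrated mice. Castrated replicates 1, 2 and 3 held 28015507, 18951782 and 20492061 counts in total, and intact replicates 1 and 2 held 21560355 and 22853501.

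A pair of libraries stood apart from the rest of their groups. In intact replicate 2, the 76 genes of cytosolic ribosomal proteins summed to 132123 CPM (counts scaled to library size, here with TMM factors), against 38139 to 45676 in the other 4 samples. The same library held Tgm4, a secretory product of the prostate, at 1347 CPM, while the other 4 samples were at or below 0.419 CPM. Castrated replicate 1 lay close to intact replicate 1 for the genes described here. Its median log2 difference over the 80 members tested was -0.01 from intact replicate 1 but 0.41 from castrated replicate 2. The counts over all members, and for each complex the counts with a lower mean and without overlap, are therefore also given without these libraries. Castrated replicate 1 was singled out by the levels of the members themselves. Leaving it out therefore lowers the castrated group by construction, and the counts without it are a description, not a check.

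Most nuclear-encoded oxidative phosphorylation genes had a lower mean in castrated than in intact tumors, but by small amounts. No gene passed the threshold in the edgeR quasi-likelihood F-test, while DESeq2 called 3 members and edgeR's likelihood ratio test 1. Over all 87 genes castrated replicates 1, 2 and 3 summed to 9145, 7225 and 7443 CPM, and intact replicates 1 and 2 to 9125 and 10774 CPM. Castrated replicates 2 and 3 were the lowest, intact replicate 2 was the highest, and castrated replicate 1 lay just above intact replicate 1, so that the groups overlapped. The mean was 7938 ± 1051 CPM (SD, n = 3) in castrated and 9950 ± 1166 CPM (SD, n = 2) in intact samples, a difference of -20.2%. An exact two-sided permutation test of this sum gave p = 0.3, where 0.1 is the smallest value that 3 against 2 samples allow. In bulk tissue, fewer cells of a type and less RNA per cell cannot be told apart.

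**Figure D1:**
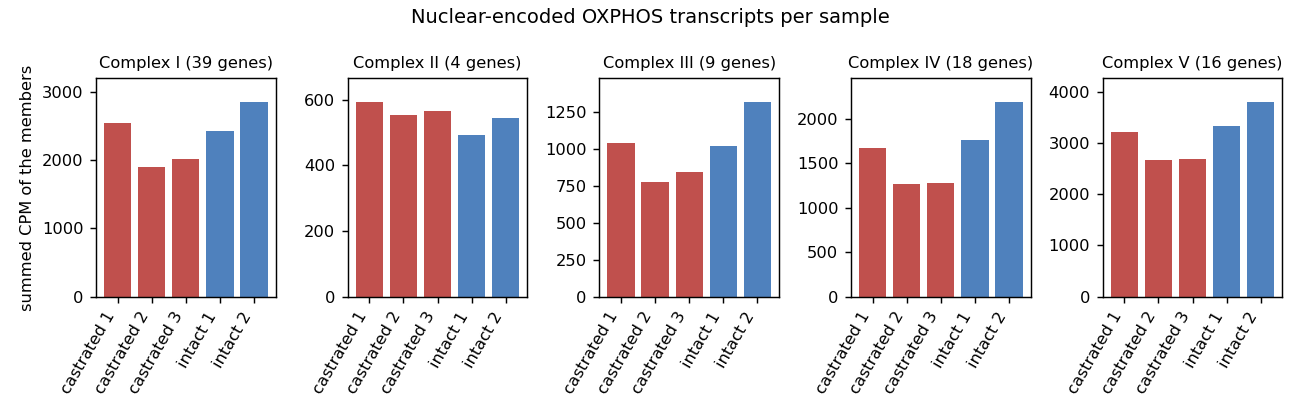
Summed CPM of the members of each complex (vertical axes, starting at 0) in each of the 3 castrated (red) and 2 intact (blue) samples. In complexes IV and V each castrated sample lay below both intact samples, in complex II above, and in complexes I and III castrated replicate 1 lay above intact replicate 1.

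Of the 87 genes, 80 passed the filter of a CPM above 1 in at least 2 samples and were tested. The 7 that did not pass were Cox6a2, Cox7a1, Cox7b2, Cox8b, Cox8c, Ndufa11b and Ndufb4c. A call required an adjusted p under 0.05 with a log2 fold change beyond 1 in either direction, and 0 of the 80 were called, beside 0% of all 14612 genes tested. The smallest adjusted p among them was 0.289 (edgeR quasi-likelihood F-test, adjusted by Benjamini-Hochberg). Without adjustment, p was under 0.05 and the mean lower in 13 members (16.2%), beside 6.28% of all genes and 13.1% of tested genes under 1 kb. The mean was higher at that p in 1 member, beside 8.74% of all genes. DESeq2 called 3 members (3.75%), Atp5md, Cox7b and Cox6b2, beside 6.77% of all genes, and edgeR's likelihood ratio test called 1 (1.25%), Cox6b2, beside 2.53%. With either tool the share of members called was below that of all genes.

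A negative log2 fold change was estimated for 68 of the 80 members (85%), beside 52.1% of all genes, for 71 without castrated replicate 1 and for 62 without intact replicate 2. The median was -0.32, beside -0.03 over all genes tested, and without castrated replicate 1 it was -0.49, beside -0.06. In 31 members (38.8%) all castrated samples lay below both intact samples, beside 16.1% of all genes and 27.2% of tested genes under 1 kb. In 3 members (3.75%) all castrated samples lay above, beside 17% of all genes and 12.3% of those under 1 kb. Intact replicate 2 was the highest sample in 50 of the 80 members, and castrated replicate 2 was the lowest in 40 and castrated replicate 3 in 27. Without castrated replicate 1, 24 members (30%, beside 5.78% of all genes) were lower at an unadjusted p under 0.05 and 59 (73.8%, beside 24.7% of all genes) lay below without overlap. Without intact replicate 2, which leaves 1 intact sample that is assumed to vary like the castrated ones, the first count fell to 3 (3.75%, beside 6.62% of all genes) and the second was 46 (57.5%, beside 34.4% of all genes), with a median of -0.30. The first count was also 3 (3.75%, beside 2.67%) without castrated replicate 2 and 2 (2.5%, beside 2.68%) without castrated replicate 3, both near the share of all genes, and the second was 49 (61.3%, beside 35.6%) without intact replicate 1.

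**Figure D2:**
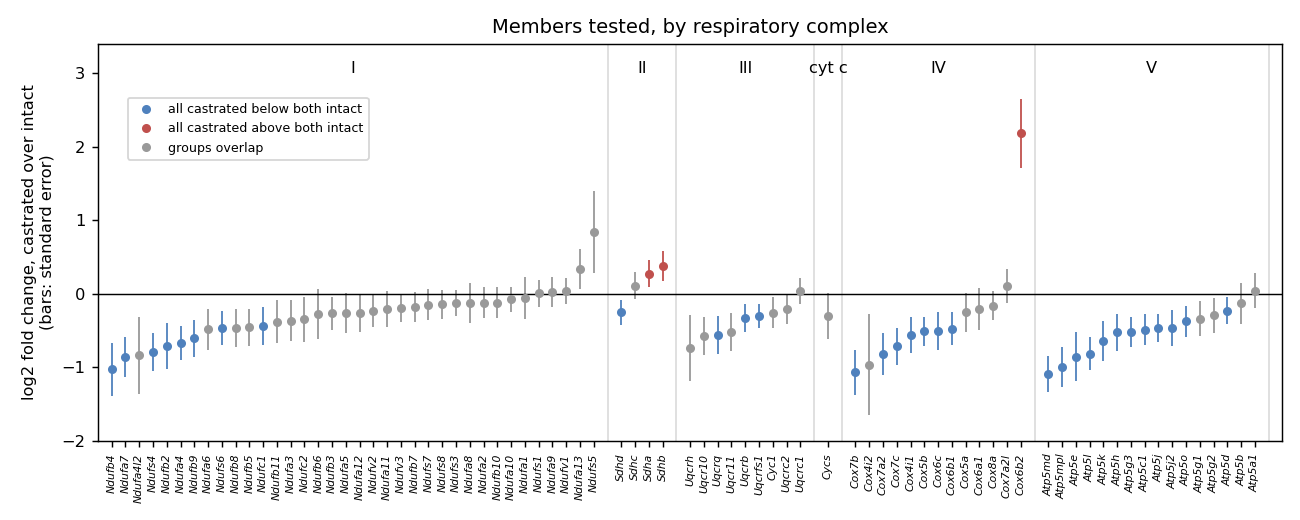
Log2 fold change of castrated over intact samples (vertical axis; points, bars are standard errors) for 79 of the 80 members tested, ordered within each complex. Blue points mark the 31 members with every castrated sample below both intact samples, red points the 3 with every castrated sample above, and grey points overlapping groups.

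Gene length separated the members. The oxidative phosphorylation genes were short, with a median length in the deposited table of 0.757 kb, against 3.081 kb over all genes tested. Among the 52 tested members under 1 kb, 50 had a lower mean in castrated samples, with a median log2 fold change of -0.46, and among the 28 of 1 kb or more, 18 did, with a median of -0.17. All 865 tested genes under 1 kb had a median of -0.30, and the 13747 others -0.02. Of these 865, 66.9% had a lower mean and 27.2% lay below without overlap. At an unadjusted p under 0.05 in the edgeR quasi-likelihood F-test, 13.1% of them were lower. The matching shares of the 52 members under 1 kb were 96.2%, 48.1% and 21.2%. The 865 short genes summed to 76953, 63983 and 70610 CPM in castrated and 71476 and 139918 CPM in intact samples. Intact replicate 2 was thus far above the rest, and castrated replicate 1 lay above intact replicate 1. Across the 80 members, which share libraries and are not independent, Pearson's r of log2 fold change with log2 length was 0.24 and Spearman's rho 0.40. When each library was corrected for gene length by a loess curve, the median over members was -0.15, 53 of 80 remained below 0, and the members below without overlap numbered 12 (15%), beside 13.4% of all genes, so that their share was close to the background.

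**Figure D3:**
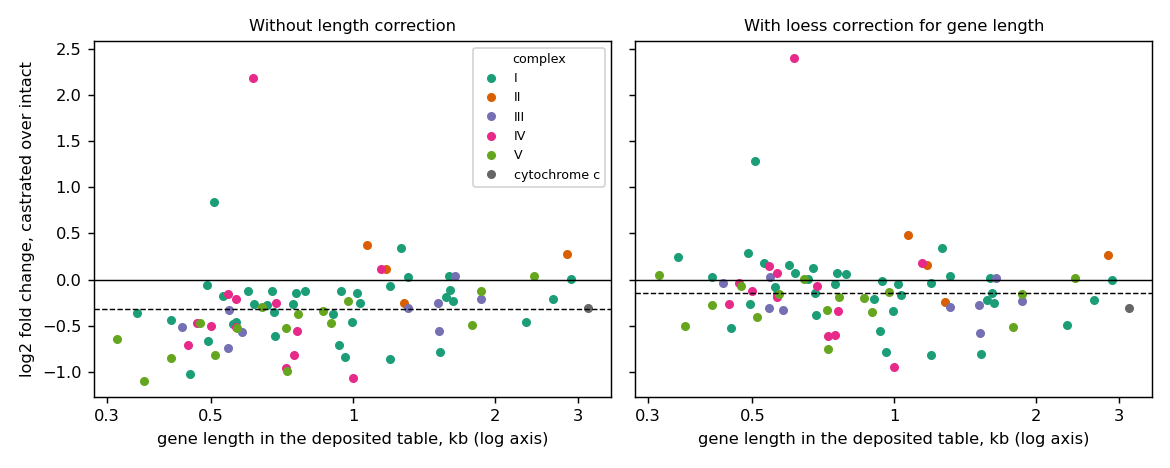
Log2 fold change of castrated over intact samples (vertical axes) against gene length in kb (horizontal log axes) for the 80 members tested, coloured by complex, without and with a loess correction of each library for length. The dashed lines are the medians, -0.32 without and -0.15 with the correction.

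Complex V, the ATP synthase, consists of a catalytic part, in which Atp5a1, Atp5b and Atp5c1 encode the α, β and γ subunits, and a membrane part with small subunits. Of its 16 genes, 15 had a lower mean in castrated samples, with a median log2 fold change of -0.48, and 12 (75%, beside 16.1% of all genes) lay below in every castrated sample. The first count was 15 as well without castrated replicate 1 or intact replicate 2. Without castrated replicate 1 the second count was 15 (93.8%, beside 24.7%) and without intact replicate 2 it was 13 (81.2%, beside 34.4%). The median was -0.20 with the length correction, under which 2 (12.5%, beside 13.4% of all genes) lay below in every castrated sample. Castrated replicates 1, 2 and 3 summed to 3216, 2668 and 2680 CPM, and intact replicates 1 and 2 to 3327 and 3802 CPM.

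Atp5md, which encodes a small membrane-part subunit that helps to hold the ATP synthase in dimers, had the lowest fold change of all members. Castrated replicates 1, 2 and 3 were at 87.9, 62.1 and 62.2 CPM, and intact replicates 1 and 2 at 131 and 171 CPM. The groups did not overlap, and castrated replicate 1 was the closest to the intact samples. The log2 fold change was -1.09 (SE, standard error, 0.25, adjusted p = 0.289 by the edgeR quasi-likelihood F-test), and it lay between -1.28 and -0.94 when single libraries were left out. It was -0.50 with the length correction, under which 11 members were lower, down to -0.94 in Cox7b. Atp5md lies on chromosome 19 from 47083471 to 47090647 (mm10).

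Atp5mpl, another small membrane-part subunit, was at 84.3, 60.5 and 62.8 CPM in castrated and 107 and 167 CPM in intact samples, in replicate order. Atp5l, subunit g, was at 69.9, 56.7 and 59.8 CPM in castrated and 90.7 and 128 CPM in intact samples. Both lay below in every castrated sample, and in both intact replicate 2 was the highest. Their log2 fold changes were -0.99 (SE 0.27) and -0.81 (SE 0.22), the latter -0.40 with the length correction, each with an adjusted p of 0.290 (edgeR quasi-likelihood F-test, adjusted by Benjamini-Hochberg). For Atp5l, 9 other genes, 8 of them pseudogenes, have a near-identical transcript, so its count is uncertain. Together with Atp5md, and with Atp5e and Atp5g3, named here after their values were seen, these were the 5 genes of complex V with an unadjusted p under 0.05. Their share was 31.2%, beside 6.28% of all genes and 13.1% of tested genes under 1 kb that were lower at that p.

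Of the catalytic subunits, Atp5a1 was at 686, 675 and 679 CPM in castrated and 619 and 699 CPM in intact samples, with a log2 fold change of 0.04 (SE 0.24). Atp5b, the most abundant of all members per length with a mean of 1036 TPM over the 5 samples, was at 950, 773 and 745 CPM in castrated and 910 and 886 CPM in intact samples, with a log2 fold change of -0.13 (SE 0.28). In both genes the groups overlapped. Atp5c1 lay below in every castrated sample, at 255, 210 and 212 CPM against 287 and 346 CPM, with a log2 fold change of -0.49 (SE 0.21, adjusted p = 0.352 by the edgeR quasi-likelihood F-test). With the length correction Atp5c1 was at -0.51, close to Atp5md.

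**Figure D4:**
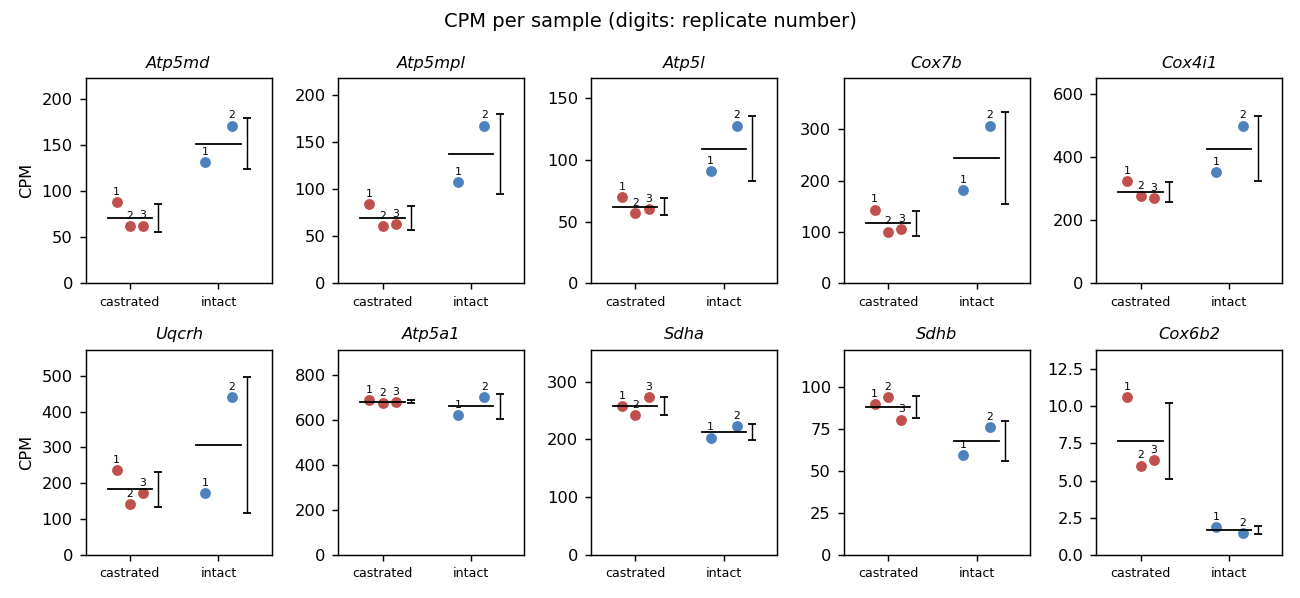
CPM (vertical axes, starting at 0) of 10 members in each castrated (red) and intact (blue) sample, with the replicate number beside each point, the group mean as a line and the SD as a bar. Castrated samples lay below in Atp5md, Atp5mpl, Atp5l, Cox7b and Cox4i1, above in Sdha, Sdhb and Cox6b2, and overlapped with intact samples in Uqcrh and Atp5a1.

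Complex IV, cytochrome c oxidase, had 13 genes tested, with -0.50 as their median log2 fold change, of which 11 had a lower mean in castrated samples and 7 (53.8%, beside 16.1% of all genes) lay below without overlap. That count was 9 (69.2%) both without castrated replicate 1, beside 24.7%, and without intact replicate 2, beside 34.4%, and those with a lower mean numbered 11 and 10. With the length correction the median was -0.12 and 2 (15.4%, beside 13.4%) lay below without overlap. Cox7b, a small structural subunit, was at 143, 100.4 and 105 CPM in castrated and 181 and 307 CPM in intact samples. All castrated samples were below, and intact replicate 2 was far above the rest. Near-identical transcripts of 2 pseudogenes make this count uncertain. The log2 fold change was -1.07 (SE 0.30, adjusted p = 0.290 by the edgeR quasi-likelihood F-test), and it was -0.68 without intact replicate 2. The other genes of the complex that were lower at an unadjusted p under 0.05 were Cox5b, Cox7a2 and Cox7c, the last 2 named after their values were seen. With Cox7b these were 4 genes (30.8%), beside 6.28% of all genes and 13.1% of tested genes under 1 kb.

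Cox4i1, the ubiquitous isoform of subunit IV, was the most abundant gene of the complex per length. It was at 324, 275 and 269 CPM in castrated and 353 and 499.9 CPM in intact samples, and the groups did not overlap. Cox5b, a zinc-binding subunit, was at 90.1, 69.6 and 72.1 CPM in castrated and 105 and 115 CPM in intact samples, again without overlap. The log2 fold change of Cox4i1 was -0.56 (SE 0.24), and -0.33 without intact replicate 2 and -0.34 with the length correction. That of Cox5b was -0.51 (SE 0.20), and -0.19 with the length correction. Cox5a, its neighbour in the complex, was at 132, 107 and 93.1 CPM in castrated and 158 and 106 CPM in intact samples, so that the groups overlapped. The log2 fold change was -0.25, and 0.09 without intact replicate 1.

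Cox6b2 went the other way. It encodes the isoform of subunit VIb known from testis, where it stands in for the ubiquitous Cox6b1. Castrated replicates 1, 2 and 3 were at 10.6, 6.01 and 6.38 CPM, and intact replicates 1 and 2 at 1.88 and 1.49 CPM, from 304, 112, 131, 42 and 32 counts. Every castrated sample was above both intact samples, with castrated replicate 1 the highest. The log2 fold change was 2.18 (SE 0.47, adjusted p = 0.289 by the edgeR quasi-likelihood F-test), and it lay between 1.87 and 2.38 when single libraries were left out. DESeq2 gave an adjusted p of 0.000799 and edgeR's likelihood ratio test 0.0428. Cox6b2 took 3.97%, 3.04% and 3.03% of the summed TPM of Cox6b2 and Cox6b1 in castrated samples, and 0.693% and 0.443% in intact samples, so Cox6b1 remained the main isoform throughout. Cox6b2 lies on chromosome 7 from 4751792 to 4753094 (mm10), with no exon of another gene overlapping and no near-identical transcript.

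The other restricted isoforms were scarce. Cox4i2, the isoform of subunit IV known from lung and low oxygen, had 45, 33 and 35 counts in castrated and 27 and 115 counts in intact samples, and its log2 fold change of -0.96 became 0.43 without intact replicate 2. Cox6a2, Cox7a1 and Cox8b, isoforms of heart and skeletal muscle, had at most 5, 21 and 3 counts in any sample. Cox7b2 had at most 1 count, and Cox8c, a testis isoform, had 0 in all 5. Ndufa4l2, a target of the hypoxia-inducible factor, was at 5.23, 2.04 and 2.78 CPM in castrated and 6.99 and 5.02 CPM in intact samples, with overlap. The muscle isoforms were thus near 0 in every sample. Of 5 skeletal muscle markers, Ckm and Myh4 were at or below 0.0536 CPM, Acta1 and Tnnt3 reached 0.438 and 0.828 CPM, and Mylpf, the most abundant, was between 1.45 and 2.28 CPM in every sample, with overlapping groups. Ucp1, the marker of brown fat, was at or below 0.349 CPM in all 5.

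Complex III had a median log2 fold change of -0.33, with 8 of 9 genes lower in the mean and 3 (33.3%, beside 16.1% of all genes) below without overlap, namely Uqcrfs1, Uqcrb and Uqcrq, the last 2 named after their values were seen. At an unadjusted p under 0.05 in the edgeR quasi-likelihood F-test, 0 of the 9 (0%, beside 6.28% of all genes) were lower. With the length correction the median was -0.27 and 3 (33.3%, beside 13.4%) lay below without overlap. Without castrated replicate 1 there were 7 (77.8%, beside 24.7%), and without intact replicate 2 there were 6 (66.7%, beside 34.4%), with 9 and 7 genes lower in the mean. Uqcrfs1, the Rieske iron-sulfur protein, was at 97.5, 88.7 and 92.7 CPM in castrated and 114 and 115 CPM in intact samples. The log2 fold change was -0.30 (SE 0.16, adjusted p = 0.427 by the edgeR quasi-likelihood F-test). Uqcrh, the hinge protein beside cytochrome c1 and the most abundant gene of the complex per length, was at 236, 141 and 172 CPM in castrated and 172 and 440 CPM in intact samples. Its fold change rested on intact replicate 2, as it was -0.74 with that library and 0.05 without it. Cyc1, which encodes cytochrome c1, and the core proteins Uqcrc1 and Uqcrc2 overlapped between groups, with log2 fold changes of -0.25, 0.04 and -0.20. Cycs, the electron carrier between complexes III and IV, was at 78.2, 51.2 and 50.2 CPM in castrated and 90.1 and 57.7 CPM in intact samples, also with overlap and with near-identical transcripts of 4 other genes.

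Complex I, the NADH dehydrogenase, had a median log2 fold change of -0.26, which was -0.16 without castrated replicate 2, -0.15 without castrated replicate 3 and -0.38 without castrated replicate 1. Of its 37 genes tested, 32 had a lower mean in castrated samples and 8 (21.6%) lay below without overlap, a share close to the 16.1% of all genes. That count was 26 (70.3%, beside 24.7%) without castrated replicate 1 and 16 (43.2%, beside 34.4%) without intact replicate 2, with 34 and 28 genes lower in the mean. With the length correction it was 5 (13.5%, beside 13.4%) and the median was -0.05. Ndufb4, an accessory subunit, was at 28.6, 18.4 and 19.1 CPM in castrated and 31.6 and 58.1 CPM in intact samples. The groups did not overlap, but castrated replicate 1 was close to intact replicate 1, and 1 pseudogene has a near-identical transcript. Its log2 fold change was -1.02 (SE 0.36, adjusted p = 0.316 by the edgeR quasi-likelihood F-test), and it was -0.56 without intact replicate 2 and -0.53 with the length correction. Ndufa4 was at 173, 123 and 164 CPM in castrated and 216 and 270.4 CPM in intact samples, without overlap and with a log2 fold change of -0.67, which was -0.26 with the length correction. With Ndufa7 and Ndufs4, named after their values were seen, these were the 4 genes with an unadjusted p under 0.05. Their share of 10.8% lay between the 6.28% of all genes and the 13.1% of tested genes under 1 kb that were lower at that p.

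The core subunits of complex I named here overlapped between groups. Ndufv1, which binds NADH, was at 77.4, 72.6 and 79.7 CPM in castrated and 68.2 and 81.1 CPM in intact samples. Ndufs1, the largest iron-sulfur subunit, was at 109.6, 92.0 and 89.5 CPM in castrated and 91.4 and 101 CPM in intact samples. Their log2 fold changes were 0.04 and 0.01, and that of Ndufs3, another core subunit, was -0.13, each with overlapping groups. Ndufv2, Ndufs7 and Ndufs8, core subunits that also carry iron-sulfur clusters, were at -0.23, -0.15 and -0.14, also with overlap and with Ndufs7 at 0.070 after the length correction, and are named after their values were seen. Ndufs5 had the highest fold change of the complex, 0.84 with an SE of 0.56, at 29.9, 23.3 and 10.6 CPM in castrated and 7.89 and 15.8 CPM in intact samples. It was 0.45 without intact replicate 1 and 1.39 without intact replicate 2. Castrated replicate 3 lay below intact replicate 2, and a near-identical pseudogene transcript makes this count uncertain. Ndufa13 was at 89.9, 54.1 and 60.9 CPM in castrated and 53.8 and 54.1 CPM in intact samples, with 1 castrated sample, replicate 1, far above the others and a log2 fold change of 0.34, or 0.092 without it.

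Complex II, succinate dehydrogenase, also belongs to the citric acid cycle and is the one complex with no subunit encoded by mitochondrial DNA. Its summed level was 594, 555 and 566 CPM in castrated and 494 and 546 CPM in intact samples, so that every castrated sample lay above both intact samples. The median log2 fold change of its 4 genes was 0.19, and 0.21 with the length correction. Of the 4, 2 (beside 17% of all genes) lay above without overlap, 2 (beside 25.1%) without castrated replicate 1 and 3 (beside 33%) without intact replicate 2, and 1 of the 4 was lower in the mean in each case. Sdha, the flavoprotein, was at 257, 241 and 273 CPM in castrated and 203 and 223 CPM in intact samples. Sdhb, the iron-sulfur subunit, was at 89.7, 93.9 and 80.6 CPM in castrated and 59.2 and 76.1 CPM in intact samples. Both lay above in every castrated sample, by log2 fold changes of 0.27 (SE 0.18) and 0.38 (SE 0.20), the latter 0.23 without intact replicate 1. The adjusted p of Sdhb, the smallest of the complex, was 0.417 (edgeR quasi-likelihood F-test, adjusted by Benjamini-Hochberg). Sdhd, a membrane anchor and the most abundant of the 4 per length, was at 124, 112 and 107 CPM in castrated and 135 and 138 CPM in intact samples, below in every castrated sample.

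Promoter sequences from RefSeq (build GRCm38.p6), covering 250 bases before to 50 after the start, were found for 68 of the 87 genes. The motif of NRF1, a nuclear respiratory factor that binds many genes of this pathway, reads GCGCA, any base and GCGC, and was found on either strand in 17 of 68 members (25%), against 10.3% of the promoters of genes tested and 5.19% of all promoters in the table. The motif CCGGAAG of ETS factors, which include GABPA, was found in 25% of members, 18.2% of genes tested and 9.93% of all promoters. ATGGCGGC (YY1) was found in 8.82%, 5% and 2.6%, and GGGCGG (SP1) in 41.2%, 66% and 38.2%, respectively. The motifs were searched one by one and may overlap. The median log2 fold change was -0.29 for the 17 tested members with the NRF1 motif and -0.32 for those without, so the motif did not go with a larger difference. It was -0.47 with and -0.30 without the ETS motif, -0.46 with and -0.30 without the YY1 motif, and -0.25 with and -0.45 without the SP1 motif, and these differences were not tested.

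The 150 bases before the start of 5 genes are shown, 5′ to 3′ on the strand of the gene. Ndufb4, Atp5k and Uqcr11 were picked among lower members that hold the NRF1 or ETS motif in this window. Cox6b2, the member with the highest fold change, and Sdhb were picked without that condition. The 5 stretches therefore cannot show whether a motif goes with the direction of change. Capitals mark matches to the motifs on either strand. Ndufb4 (chr16:37654369-37654518, minus strand) holds the NRF1 motif at 2 places, beginning at -79 and -22 from the start, with the SP1 motif at -110, and Atp5k (chr5:108434400-108434549, minus strand) at 1, at -50. Uqcr11 (chr10:80406822-80406971, minus strand) holds the ETS motif, Sdhb (chr4:140961121-140961270, plus strand) holds the SP1 motif at 2 places, and Cox6b2 (chr7:4753095-4753244, minus strand) holds none of these letters in this window. In the longer promoter counted above, Cox6b2 holds the SP1 motif, and Atp5k and Sdhb also hold the ETS motif.
Ndufb4: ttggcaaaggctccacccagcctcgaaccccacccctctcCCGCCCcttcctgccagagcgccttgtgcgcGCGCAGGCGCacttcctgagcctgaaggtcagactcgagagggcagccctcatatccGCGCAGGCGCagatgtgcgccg
Atp5k: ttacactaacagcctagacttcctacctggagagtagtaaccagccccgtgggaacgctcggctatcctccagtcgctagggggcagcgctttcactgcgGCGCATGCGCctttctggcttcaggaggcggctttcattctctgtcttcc
Uqcr11: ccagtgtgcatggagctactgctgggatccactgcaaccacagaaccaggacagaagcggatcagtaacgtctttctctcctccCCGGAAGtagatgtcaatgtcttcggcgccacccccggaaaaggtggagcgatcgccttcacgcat
Sdhb: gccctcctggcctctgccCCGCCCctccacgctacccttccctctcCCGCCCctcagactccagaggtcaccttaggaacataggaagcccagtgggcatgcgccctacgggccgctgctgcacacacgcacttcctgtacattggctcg
Cox6b2: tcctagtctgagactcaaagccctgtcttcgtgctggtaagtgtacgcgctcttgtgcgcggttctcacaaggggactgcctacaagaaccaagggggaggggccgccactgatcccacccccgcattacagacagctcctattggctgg

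Other genes of the pathway showed the following pattern. Of 47 assembly factors tested, which build the complexes without remaining in them, 40 had a lower mean in castrated samples, with a median log2 fold change of -0.21, and 12 (25.5%, beside 16.1% of all genes) lay below without overlap. Their sums were 1050, 852 and 899 CPM in castrated and 971 and 1196 CPM in intact samples, so the groups overlapped. At an unadjusted p under 0.05 in the edgeR quasi-likelihood F-test, 3 factors (6.38%, beside 6.28% of all genes) were lower. The one with the smallest p, Tmem70, an assembly factor of the ATP synthase, was at 44.1, 31.2 and 30.2 CPM in castrated and 64.7 and 56.2 CPM in intact samples. Of 17 genes of the citric acid cycle and pyruvate dehydrogenase, 11 had a lower mean and the median was -0.06, close to that of all genes. Pdha1, of the pyruvate dehydrogenase, was at 227, 213 and 217 CPM in castrated and 214 and 425 CPM in intact samples, with overlap. Of 10 carriers and channels, 8 had a lower mean, and Slc25a5, an exchanger of ADP and ATP, was at 380, 287 and 274 CPM in castrated and 474 and 485 CPM in intact samples.

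Of 18 regulators of mitochondrial biogenesis, 17 had a lower mean in castrated samples, with a median of -0.34, and 9 (50%) lay below without overlap, beside the 16.1% of all genes. Ssbp1, which binds single-stranded mitochondrial DNA, was at 42.2, 33.9 and 35.4 CPM in castrated and 61.7 and 73.7 CPM in intact samples. The difference on the log2 scale was -0.86 (SE 0.20, adjusted p = 0.289 by the edgeR quasi-likelihood F-test). Ppargc1a, a coactivator of nuclear respiratory factors that is also on the list of brown fat markers, was at 17.7, 12.7 and 11.3 CPM in castrated and 45.4 and 26.3 CPM in intact samples, a log2 fold change of -1.37. Both lay below in every castrated sample.

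Markers of macrophages and smooth muscle separated the groups, while those of epithelium and T cells overlapped. Over all genes tested, 17% lay above and 16.1% below without overlap. Summed macrophage markers, with Cd68 the most abundant, were at 411, 1443 and 778 CPM in castrated and 260 and 258 CPM in intact samples, and all 4 lay above in every castrated sample. Smooth muscle markers were at 81.4, 176 and 218 CPM in castrated and 23.2 and 17.5 CPM in intact samples, with Myh11 the most abundant and all 4 above. Adipocyte markers, mostly Fabp4, were at 38.0, 437 and 369 CPM in castrated and 26.1 and 52.2 CPM in intact samples, so that the samples with the lowest oxidative phosphorylation levels, castrated replicates 2 and 3, held the most. Adipoq was at 0.523, 68.8 and 68.3 CPM in castrated and at 0 and 0.0930 CPM in intact samples. The 6 epithelial markers, led by Krt8, summed to 3235, 3007 and 3856 CPM in castrated and 4521 and 3186 CPM in intact samples, with 0 of 6 apart. The 3 proliferation markers summed to 41.1, 58.9 and 81.3 CPM in castrated and 187 and 241 CPM in intact samples, and all lay below in every castrated sample. Of 3 endothelial markers, Kdr and Pecam1 lay above in every castrated sample, at 62.4, 34.3 and 43.4 CPM against 27.5 and 21.1 CPM for Kdr, while Cdh5 overlapped, with 227 CPM in intact replicate 1. The 3 T cell markers overlapped. The part of cell makeup or proliferation in the levels above was not tested.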

How the data were processed

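Bulk RNA-seq of 3 castrated and 2 intact tumors was used, grouped by the sample labels, with no sample left out. The authors depleted ribosomal RNA, trimmed paired-end reads (Trimmomatic 0.39), aligned them to mm10 (STAR 2.7.9) and deposited raw counts per gene from HTSeq 2.0.2, with gene lengths in kb. Whether counting used the strand is not given in the sources used here, and 27 tested members share exon bases with another gene. Near-identical transcripts of other genes (at least 95% over 200 bases, BLAST 2.17.0) exist for 25 of 79 members matched to GENCODE.

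A CPM over 1 in 2 or more samples was required, and edgeR 4.0.16 (R 4.3.3) was run with TMM scaling and the quasi-likelihood F-test, and p-values were adjusted by Benjamini-Hochberg over all 14612 genes. CPM values use TMM-scaled library sizes, and TPM was computed from counts and the deposited lengths. The common dispersion was 0.238, and spread among animals limited the precision more than counting did. The SE was derived from the log2 fold change and the root of F. Lists were described by counts and medians. The members and lists were chosen with earlier results of these data known. Named members were core subunits, restricted isoforms, the most abundant per length of each complex, the 5 lowest and 5 highest log2 fold changes and the 5 smallest p, and of each other list the gene with the smallest p. One member that this rule names is not reported here, though it remains in all counts and medians. Genes with the most similar pattern are not listed, since 5 samples are too few for a correlation. In simulated counts for 14612 genes, the quasi-likelihood test called 77 of 100 genes changed by 4 and 14 of 100 changed by 2 on the log2 scale, with 6 unchanged genes called, and DESeq2 1.42.0 called 90 unchanged genes. Alternatives were DESeq2, the likelihood ratio test, limma 3.58.1 (voom), other scalings and filters, a loess correction for length (span 0.5), a replicate block and leaving out each sample. Leaving out castrated replicate 1 or intact replicate 2 with the genes of the full filter was added after seeing the data.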

Additional observations from a re-analysis of the deposited data

How the results depend on the processing

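Over all genes, DESeq2 called 989 and edgeR's likelihood ratio test 369, against 0 in the quasi-likelihood test, and 3 and 1 of them were members; leaving out single samples gave between 0 and 1 called genes and 0 members. Members lower at an unadjusted p under 0.05 numbered 8 (10%, beside 5.06% of all genes) with the likelihood ratio test, 8 (10%, beside 5.64%) with the length correction and between 2 and 24 when single samples were left out. With the length correction 3 were higher, 12 (15%, beside 13.4%) lay below and 9 (11.2%, beside 17.9%) above without overlap, and the medians of complexes IV and V were -0.12 and -0.20. Scaling by library size only put 5 members (6.25%, beside 17.9%) above without overlap. Leaving out single samples gave 30 (37.5%, beside 19.7%) to 59 (73.8%, beside 24.7%) members below and 3 (3.75%, beside 25.1%) to 11 (13.8%, beside 33%) above without overlap. With the gene filter of the full set, fits without castrated replicate 1 gave 25 members (31.2%, beside 5.85%) lower at that p and 61 (76.2%, beside 24.8%) below without overlap, and fits without intact replicate 2 gave 3 (3.75%, beside 6.62%) and 46 (57.5%, beside 34.3%), with 11 (13.8%, beside 33.1%) above. The member median lay between -0.49 and -0.23 over the left-out samples and below 0 under every alternative run. The cause of these changes was not tested.

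Replicate numbers come from the labels and mark different animals, and deviations of same-numbered samples correlated at 0.17 and -0.04, so the numbers do not pair the samples. With a replicate block, 1 member (1.25%, beside 1.83% of all genes) was lower at an unadjusted p under 0.05 against 13 (16.2%, beside 6.28%) without it, and 0 were called.

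The fold changes of 8 named members changed sign when a single sample was left out, among them Cox4i2 and Uqcrh, at -0.96 and -0.74 with all samples. Their ranges were -0.020 to 0.093 for Atp5a1, -1.65 to 0.43 for Cox4i2, -0.55 to 0.087 for Cox5a, -0.63 to 0.075 for Cycs, -0.087 to 0.071 for Ndufs1, -0.063 to 0.12 for Ndufv1, -0.067 to 0.14 for Uqcrc1 and -1.24 to 0.050 for Uqcrh. With the gene filter of the full set, Ndufs1 and Uqcrc1 were at -0.086 and -0.014 without castrated replicate 1, and Cox4i2 and Uqcrh at 0.43 and 0.050 without intact replicate 2. Atp5k, Ndufs7 and Uqcrb, named after their values were seen, were at 0.052, 0.070 and 0.025 with the length correction. The other 32 members followed through the alternatives kept their direction under every alternative run. Some members outside these 43 also changed sign. Ndufa8 went from -0.12 to 0.092 without intact replicate 2, and Cox7a2l from 0.11 to -0.10 without intact replicate 1. With the length correction more did, among them Ndufa3, from -0.37 to 0.25, Ndufa1, from -0.055 to 0.29, and Cox8a, from -0.16 to 0.15. These members are named after their values were seen. In complex I, the genes with a lower mean fell from 32 to 22 with that correction.

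With 2 intact animals, the absence of called members in the quasi-likelihood test is not evidence of equal levels.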

Other observations

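Genes that import and translate mitochondrial proteins were also measured. Of 19 import genes tested, 17 had a lower mean in castrated samples, with a median log2 fold change of -0.58, and 12 (63.2%, beside 16.1% of all genes) lay below both intact samples in every castrated sample. Timm9, a chaperone between the mitochondrial membranes, was at 17.3, 14.9 and 13.8 CPM in castrated and 32.3 and 31.2 CPM in intact samples, and the intact samples differed little from each other. Of 77 mitochondrial ribosomal protein genes tested, 72 had a lower mean, with a median of -0.31, and 29 (37.7%, beside the same 16.1%) lay below without overlap. They summed to 2495, 2020 and 2100 CPM in castrated and 2513 and 3191 CPM in intact samples, so castrated replicate 1 lay close to intact replicate 1. At an unadjusted p under 0.05 in the edgeR quasi-likelihood F-test, 4 (5.19%, beside 6.28% of all genes) were lower. Mrpl33 was at 34.5, 28.8 and 29.8 CPM in castrated and 48.8 and 73.1 CPM in intact samples. All 76 cytosolic ribosomal protein genes had a lower mean, with a median of -1.09, but intact replicate 1 summed to 45676 CPM and castrated samples to 43158, 38139 and 43877 CPM, so most of this difference came from intact replicate 2, at 132123 CPM. Rpl34 was at 214, 105 and 120 CPM in castrated and 337 and 878 CPM in intact samples.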
